A study of Mus musculus with 6 samples.

Results

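The transcripts described here are those of the extracellular metalloproteases and their tissue inhibitors in mouse kidney. They were taken by gene symbol alone: every row with values named Mmp (matrix metalloproteinase), Adam (a disintegrin and metalloproteinase), Adamts (the same with thrombospondin repeats), Adamtsl (ADAMTS-like) or Timp (tissue inhibitor of metalloproteinases) and a number. The rule found 71 of the 19503 genes with values: 21 Mmp, 22 Adam, 19 Adamts, 5 Adamtsl and 4 Timp. A further 14 rows with such names, among them Mmp1a, Mmp1b, Adam18 and Adam29, carried no values in any library.

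RNA came from whole kidneys of mice 8 weeks old, with 3 libraries in each of 2 groups. By its labels the first group is wild type and the second, here NICD2_Pax8, has the genotype R26NICD2/+pax8cre. That allele at the Rosa26 locus encodes the intracellular domain of Notch2, which acts without ligand, and Pax8 drives expression along the epithelium of the nephron and collecting duct. The series title instead names a Pax-rtTA driver, and the control libraries' titles also start with NICD. The sources used here therefore settle neither the driver nor whether the controls carried the allele. No label ties a library to an animal of its own, so each p-value reflects the spread among 6 libraries, and that spread may be technical.

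Levels are FPKM, fragments scaled to transcript length and to library size, so they may be compared between genes. Depth, read from the spacing of low values, came to 14600000 to 17800000 fragments per library. A row spelled NOTCH2 in capitals and without annotation stood at 1.27 to 3.75 FPKM in wild type and 500.5 to 570.4 in NICD2_Pax8, and the mouse gene Notch2 at 4.19 to 5.55 and 12.2 to 13.4. Kidney epithelial markers were present in all 6 libraries, with Umod, made by the thick ascending limb, at 658 FPKM or more. Of 6 such markers 4 fell, among them Slc12a1 and Slc12a3 of the distal nephron and Aqp2 of the collecting duct, and Pax8 rose. The summed level of 6 proximal tubule markers was 3803 to 5690 FPKM in wild type and 63.3 to 434 in NICD2_Pax8, where all 6 fell. Of 6 endothelial markers 5 fell, with summed levels of 191 to 205 FPKM in wild type and 83.1 to 108 in NICD2_Pax8. Over all genes tested 45.1% rose and 16.2% fell, against which these marker counts, made without scaling, are to be read. Wild-type replicate 1 stood apart: 6 adrenal cortex transcripts summed to 3660 FPKM there and to 1.46 to 1.77 in the other 5 libraries, and 6 adipocyte transcripts summed to 4312 against 63.1 to 893. In whole kidney, fewer cells of a type and less RNA per cell cannot be told apart.

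Matrix metalloproteinases are zinc enzymes that are made with an inhibitory prodomain and cut collagens, laminins, elastin and many non-matrix proteins once that domain is removed. ADAM proteases sit in the membrane and shed the outer parts of other membrane proteins. ADAM10 makes the cut in ligand-bound Notch receptors that precedes release of the intracellular domain, a step that the NICD2 allele does not need. ADAMTS proteases are secreted and cut proteoglycans such as versican and aggrecan or trim procollagen. ADAMTS-like proteins resemble them without the protease domain and bind fibrillin microfibrils, and TIMPs block the active sites. In the kidney these genes are studied mainly in fibrosis, in tubular injury and in the remodelling of basement membrane around growing tubules.

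The changes were uneven within every family. The inhibitors Timp1 and Timp3 went in opposite directions, Adamts1, Adamts16, Adamts7 and Adamts4 rose 9.48-fold to 39.2-fold in mean FPKM, and Mmp14 rose 4.34-fold. Adamtsl4 rose and Adamtsl2 fell. The Notch sheddase Adam10 was 1.60-fold higher, a change that did not pass after scaling for composition.

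A gene was tested when it reached 1 FPKM in at least 3 libraries, which 39 of the 71 members did, and was called at an adjusted p under 0.05 (limma on log2(FPKM + 1), Benjamini-Hochberg over all 13500 genes tested). Of the 39, 18 rose and 6 fell, or 46.2% and 15.4%. Among all genes tested 45.1% rose and 16.2% fell, so the members' shares were close to the background. In either direction 24 members were called, beside 61.4% of all genes. The groups did not overlap in 20 members that were higher and 10 that were lower in NICD2_Pax8, or 51.3% and 25.6%, beside 49.9% and 18.8% of all genes. Of these members 6 passed the filter through 1 group only, with 0 libraries at 1 FPKM in the other, and these had to differ: Adam8, Adamts4, Adamts16, Mmp3 and Mmp12 rose and Mmp28 fell. Among the 33 others 13 rose, 5 fell and 15 were not called. The median log2 fold change of the tested members was 0.23, against 0.32 for all genes.

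The median of all genes thus lay above 0. Median-of-ratios scaling, which sets the typical gene to no change, moved the median of all genes from 0.32 to 0.02. Of the tested members 13 then rose and 11 fell, or 33.3% and 28.2%, beside 28.7% and 25.7% of all genes. All 13 had also risen without scaling, and all 6 that had fallen did so again. Adam10, Adam15, Adamts2, Adamts9 and Mmp17 lost their call as higher with scaling. Adamts2 and Adamts9 had it again when wild-type replicate 1 was also left out, at log2 fold changes of 0.51 (adjusted p = 0.0231) and 0.48 (adjusted p = 0.0309). Without scaling, Adamts9 lost its call when any 1 of the other 5 libraries was left out (adjusted p from 0.0547 to 0.0996). Mmp17 lost it without wild-type replicate 2 or 3 or NICD2_Pax8 replicate 2 or 3 (0.0734 to 0.0833). The call of Mmp17 was also lost with the replicate number as a block (adjusted p = 0.0670). Timp2, Adam9, Adam11, Adamts5 and Adamts10 were called lower with scaling and not in the fit of values as deposited. The sign of the difference changed in 5 members, Mmp11, Mmp23, Adam12, Adamts12 and Adamtsl5, and these were called in neither fit.

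**Figure D1:**
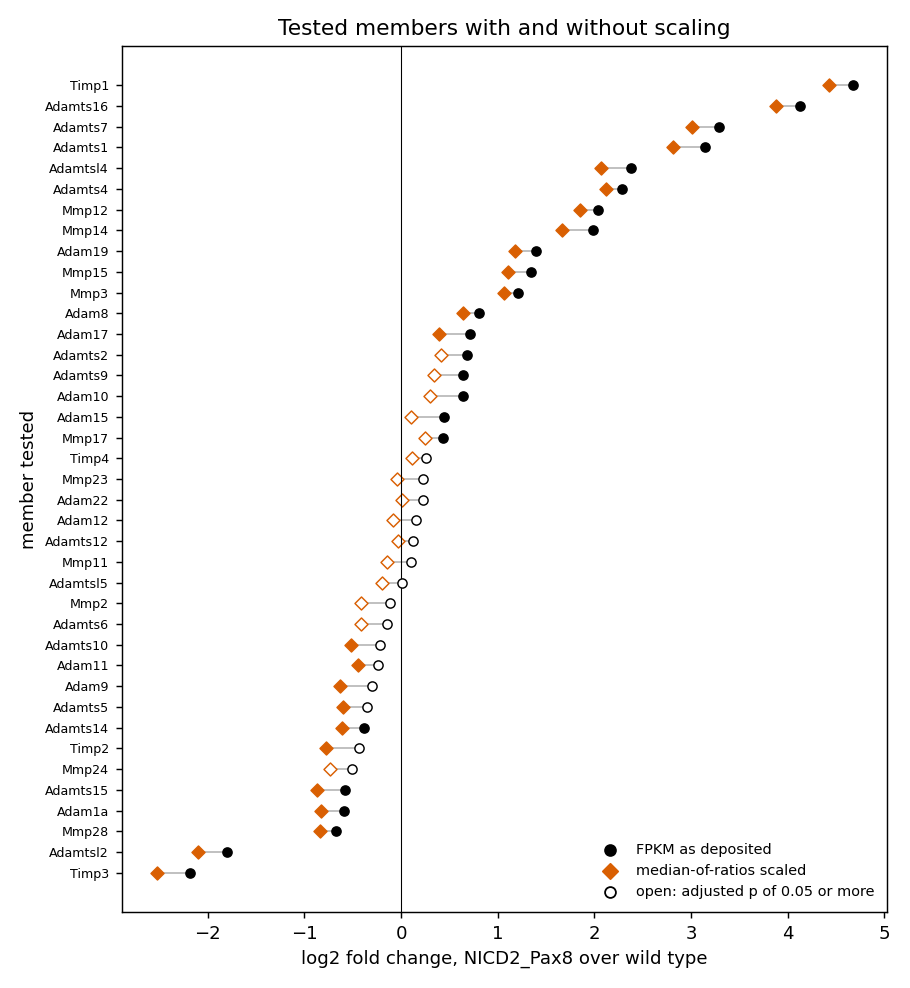
Log2 fold change (horizontal axis) of each of the 39 tested members (vertical axis) from FPKM as deposited (circles) and after median-of-ratios scaling (diamonds), with open symbols where the adjusted p is 0.05 or more. Scaling moves every point to the left, and 10 members change their call, all with changes under 0.7 as deposited.

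With a limit of 5-fold in mean FPKM, chosen after the values were seen, 8 of the 39 tested members rose past it (20.5%) and 0 fell past it, beside 6.19% and 2.9% of all genes tested. Just outside it lay Timp3 and Adamtsl2, which fell 4.56-fold and 4.30-fold, and Mmp14 and Adam19, which rose 4.34-fold and 4.33-fold. The 8 were Timp1, Adamts1, Adamts4, Adamts7, Adamts16, Adamtsl4, Mmp3 and Mmp12. Of these, Adamts4, Adamts16, Mmp3 and Mmp12 had passed the filter only through the NICD2_Pax8 libraries.

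**Figure D2:**
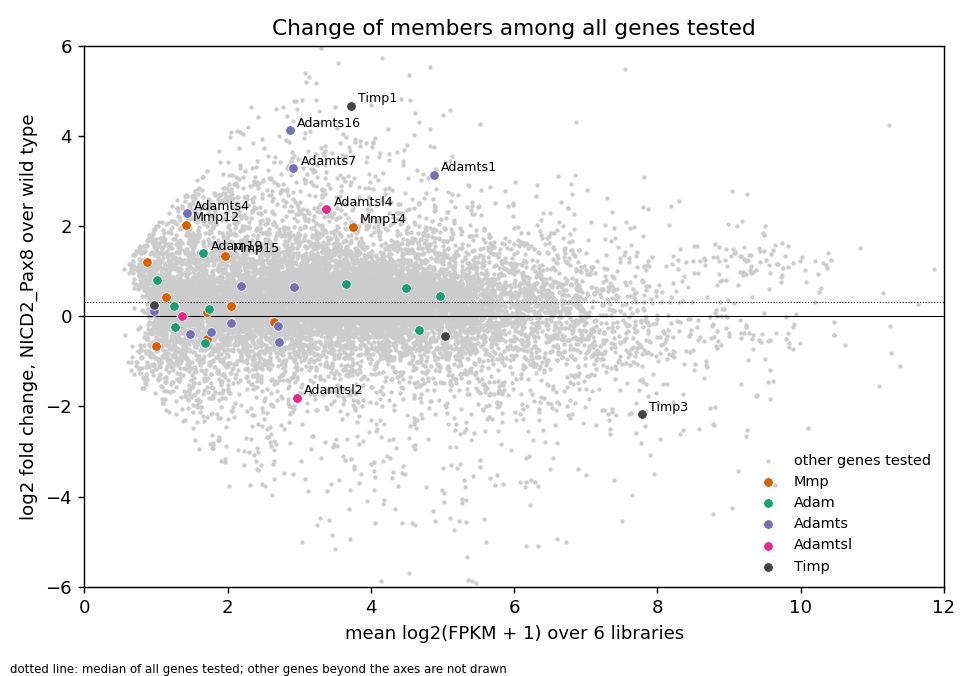
Log2 fold change (vertical axis) against mean log2(FPKM + 1) over the 6 libraries (horizontal axis) for all genes tested (grey) and the members, coloured by family. Timp1, Adamts16, Adamts7 and Adamts1 lie highest among the members, Timp3 and Adamtsl2 lowest, and the dotted line marks the median of all genes at 0.32.

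The inhibitors were read first. Timp3 (gene 21859, chromosome 10, 86300412 to 86349505, plus strand), the TIMP that binds to matrix and that inhibits ADAM17 and the aggrecanases beside the MMPs, was by far the most abundant member in wild type. In NICD2_Pax8 it was first by mean only, and Adamts1 stood above it in replicate 1. It stood at 454, 537 and 420.5 FPKM in wild-type replicates 1 to 3 and at 88.9, 114 and 107 FPKM in NICD2_Pax8 replicates 1 to 3. The groups did not overlap, and every wild-type library was far above the highest NICD2_Pax8 value. Timp3 fell 4.56-fold in mean FPKM. Its log2 fold change was -2.18 (SE 0.14, adjusted p = 7.72e-05), and -2.53 after scaling.

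Timp1 (gene 21857, chromosome X, 20870166 to 20874737, plus strand), a secreted inhibitor known as a marker of kidney injury and fibrosis, went the other way. Its wild-type libraries stood at 6.63, 0.45 and 0.62 FPKM and its NICD2_Pax8 libraries at 69.0, 60.8 and 67.6 FPKM. The NICD2_Pax8 values were tight, and the wild-type values were low except in replicate 1, the library with adrenal and fat transcripts. Timp1 rose 25.6-fold in mean FPKM (log2 fold change 4.67, SE 0.60, adjusted p = 7.58e-04). Without wild-type replicate 1 the rise was 123-fold and the log2 fold change 5.44. The part of other tissue in that library was not tested.

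Timp2, which inhibits MMP2 and also joins MMP14 in activating it, read 47.0, 37.0 and 29.3 FPKM in wild type and 23.4, 29.6 and 28.8 FPKM in NICD2_Pax8, and the ranges overlapped slightly. Its log2 fold change was -0.44 (SE 0.19, adjusted p = 0.0788) as deposited and -0.78 after scaling, where it passed (adjusted p = 0.0059). As deposited it passed when wild-type replicate 3 was left out, at -0.60 (adjusted p = 0.0257). Timp4, the inhibitor best known from heart, read 2.19, 0.68 and 0.09 FPKM in wild type and 1.27, 1.22 and 0.98 FPKM in NICD2_Pax8. Its wild-type values spread over the whole NICD2_Pax8 range and it was not called (adjusted p = 0.57). Without wild-type replicate 1 it was called higher, at a log2 fold change of 0.67 (adjusted p = 0.0335).

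The makeup of the inhibitor pool changed, and shares within a library do not depend on scaling. Timp3 made up 89.0%, 93.4% and 93.3% of the summed TIMP level in wild type and 48.7%, 55.5% and 52.3% in NICD2_Pax8. Timp1 made up 1.3%, 0.0782% and 0.138% in wild type and 37.8%, 29.5% and 33.1% in NICD2_Pax8. The groups did not overlap for either share. The ratio of Timp1 to Timp3 was 0.0146, 0.000837 and 0.00147 in wild type and 0.776, 0.531 and 0.634 in NICD2_Pax8. Summed over the 4 genes, the TIMP level was 509, 575 and 451 FPKM in wild type and 183, 206 and 204 FPKM in NICD2_Pax8, so the rise of Timp1 was smaller in FPKM than the fall of Timp3.

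**Figure D3:**
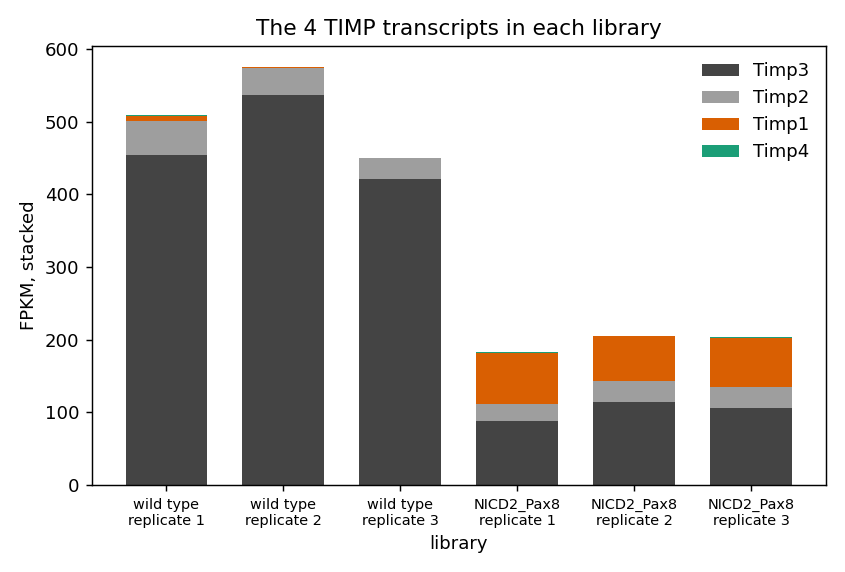
Stacked FPKM (vertical axis) of Timp3, Timp2, Timp1 and Timp4 in each of the 6 libraries (horizontal axis). The bars reach 451 to 575 FPKM in wild type, nearly all of it Timp3, and 183 to 206 FPKM in NICD2_Pax8, where Timp1 takes 29.5% to 37.8%.

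Among the matrix metalloproteinases a membrane-anchored enzyme was the most abundant. Mmp14 (gene 17387, chromosome 14, 54431598 to 54442456, plus strand), the membrane-type collagenase that activates pro-MMP2, ranked first of the 21 by mean in both groups, overlapping with Mmp2 in wild type and apart from all others in NICD2_Pax8. It read 8.06, 5.47 and 4.20 FPKM in wild type and 25.8, 26.8 and 24.4 FPKM in NICD2_Pax8. No NICD2_Pax8 library came near the wild-type range. Mmp14 rose 4.34-fold (log2 fold change 1.99, SE 0.20, adjusted p = 3.01e-04, and 1.67 after scaling).

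Mmp15, another membrane-type enzyme, read 2.81, 1.18 and 0.78 FPKM in wild type and 5.37, 5.82 and 4.57 FPKM in NICD2_Pax8. The groups did not overlap, and wild-type replicate 1 was the highest of its group. Mmp15 rose 3.30-fold, or 5.36-fold without that library (log2 fold change 1.34, SE 0.28, adjusted p = 0.00567). Mmp17, which is held by a lipid anchor, was 1.75-fold higher, a call lost with scaling. Mmp24 was not called, and its level in wild-type replicate 1, 5.74 FPKM, lay above the 1.52 to 1.97 FPKM of the other 5 libraries. Scaled and without that library, Mmp24 was called lower at a log2 fold change of -0.38 (adjusted p = 0.0418).

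Mmp2, the gelatinase made chiefly by fibroblasts and activated by MMP14, read 7.21, 5.91 and 3.87 FPKM in wild type and 5.38, 4.94 and 4.71 FPKM in NICD2_Pax8. The NICD2_Pax8 values lay inside the wild-type range, and Mmp2 was not called (log2 fold change -0.12, SE 0.20, adjusted p = 0.632). With quantile normalization it was called lower, at -0.53 (adjusted p = 0.0247). The ratio of Mmp14 to Mmp2 was 0.926 to 1.12 in wild type and 4.79 to 5.43 in NICD2_Pax8, and that of Mmp14 to Timp2 0.143 to 0.171 and 0.848 to 1.10. Both ratios were separate between the groups. Markers of fibroblasts and pericytes moved unevenly beside them. Of 6, Col1a1 and Col1a2 rose and Pdgfra and Dcn fell, beside 45.1% and 16.2% of all genes tested. The summed level of these markers was 123 to 236 FPKM in wild type and 204 to 221 in NICD2_Pax8. Their part in these ratios was not tested.

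Several secreted MMPs lie next to each other on chromosome 9, and 5 of them carried the AP-1 letters within 63 bases before the start site. Mmp8, Mmp27 and Mmp20 lie between Mmp10 and Mmp7 there and had no match among the promoters searched. Whether RefSeq held a promoter for each of these is not given here. AP-1 is the Fos and Jun transcription factor that is known to act at MMP promoters. The stretches below show those letters and their surroundings for the members of this cluster that hold it, with Adam19 from chromosome 11 as a member that rose outside the cluster. All are on the plus strand of GRCm38.p6, from RefSeq, and run 5′ to 3′. Capitals mark the AP-1 letters TGAGTCA or their reverse complement TGACTCA.

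Mmp13, chr9:7272414-7272523: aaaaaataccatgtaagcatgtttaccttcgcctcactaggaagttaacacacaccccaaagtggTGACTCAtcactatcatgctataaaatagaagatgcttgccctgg
Mmp12, chr9:7347274-7347383: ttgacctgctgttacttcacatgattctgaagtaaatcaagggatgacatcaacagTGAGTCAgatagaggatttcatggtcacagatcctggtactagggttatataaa
Mmp3, chr9:7445722-7445831: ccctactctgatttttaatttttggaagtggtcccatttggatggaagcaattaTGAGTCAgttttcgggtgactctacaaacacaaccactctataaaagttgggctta
Mmp10, chr9:7502242-7502351: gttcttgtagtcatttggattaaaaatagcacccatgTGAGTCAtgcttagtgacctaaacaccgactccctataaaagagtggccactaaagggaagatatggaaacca
Mmp7, chr9:7691990-7692099: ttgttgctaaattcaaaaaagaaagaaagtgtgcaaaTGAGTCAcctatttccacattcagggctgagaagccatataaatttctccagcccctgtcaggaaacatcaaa
Adam19, chr11:46055834-46055943: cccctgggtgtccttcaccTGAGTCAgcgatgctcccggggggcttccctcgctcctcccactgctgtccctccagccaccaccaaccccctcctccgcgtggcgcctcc

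The element began at position -35 in Mmp13, -44 in Mmp12, -46 in Mmp3, -63 in Mmp10 and Mmp7 and -131 in Adam19, counted from the start site. RefSeq held 50 promoters, from 250 bases before to 50 after the start, for 45 of the 71 members. The AP-1 letters stood in 7 of the 50 (14%) and in 5.2% of all 32851 promoters of the table. The seventh was Adam1b, where the match lay after the start. The matches in the MMP cluster come from neighbouring genes of the same family, so the 7 may not be independent. Of the genes with the element, Mmp12, Mmp3 and Adam19 rose, beside 45.1% of all genes tested. Mmp12 and Mmp3 had passed the filter only through the NICD2_Pax8 libraries, so they had to be higher there. Mmp7, Mmp10, Mmp13 and Adam1b were under the level tested, so their outcomes cannot be set against these. Whether the letters go with a rise was not tested. GTGGGAA, the core read by the Notch partner RBPJ, stood in 5 of the 50 (10%, Adam8, Adam21, Adamtsl2, Mmp7 and Mmp23) and in 6.38% of all. In Adam8 and Mmp23 that match lay after the start. In Mmp7 it lay in another listed promoter, within the gene and outside the stretch printed above. The consensus NF-kB site stood in 0 of the 50 and in 0.155% of all. Each motif was searched on both strands, and none contains another. A match is a description of letters and not a measured site.

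Mmp12 (gene 17381), the elastase of macrophages, read 0.12, 0.58 and 0.28 FPKM in wild type and 4.28, 4.31 and 4.59 FPKM in NICD2_Pax8. It rose 13.4-fold, or 22.0-fold without wild-type replicate 2 (log2 fold change 2.04, SE 0.16, adjusted p = 1.16e-04). Mmp12 had passed the filter only through the NICD2_Pax8 libraries. Of 6 macrophage markers 4 rose without scaling, Cd68, Mrc1, C1qa and Lyz2, beside 45.1% of all genes tested. Adgre1 and Csf1r were not called. The summed level of the 6 was 71.7 to 217 FPKM in wild type and 318 to 393 in NICD2_Pax8. Csf1r stood at 11.5 to 20.6 FPKM in wild type and 13.8 to 20.4 in NICD2_Pax8. C1qa stood at 28.4 to 71.5 FPKM in wild type and 111 to 131 in NICD2_Pax8, and Lyz2 at 18.7 to 109 and 149 to 205. The part of macrophages in the rise of Mmp12 was not tested.

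Mmp3, the stromelysin that cuts basement membrane proteins and activates other MMPs, read 0.12, 0.12 and 0.40 FPKM in wild type and 2.09, 1.77 and 1.55 FPKM in NICD2_Pax8. It rose 8.45-fold, or 15.0-fold without wild-type replicate 3 (adjusted p = 7.44e-04). Mmp3 had passed the filter only through the NICD2_Pax8 libraries. The wild-type values of Mmp3 rest on an estimated 2.9 to 10 fragments. Mmp10, its close relative, was listed at 0 in 5 libraries and at 0.04 FPKM in NICD2_Pax8 replicate 1.

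Mmp7 (gene 17393, chromosome 9, 7692090 to 7699585, plus strand), the small epithelial matrilysin known as a marker of injured tubules, was listed at 0, 0.08 and 0 FPKM in wild type and read 5.49, 1.20 and 0.74 FPKM in NICD2_Pax8. All NICD2_Pax8 libraries were above all wild-type ones, and replicate 1 held several times the level of the others. The wild-type value of 0.08 FPKM corresponds to an estimated 1.1 fragments and the NICD2_Pax8 values to 12.1 to 81.6. Mmp7 was under the level tested. With no filter its log2 fold change was 1.51 (SE 0.48, adjusted p = 0.0466), and the authors' deposited table gives a log2 fold change of 4.47 with a q of 1.02e-04. Exons of the opposite-strand gene AV064505 cover 11.5% of its exonic bases.

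Mmp9, the gelatinase of leukocytes and tubule cells, read 0.38, 0.20 and 0.37 FPKM in wild type and 1.13, 1.13 and 0.81 FPKM in NICD2_Pax8. It was higher in all 3 libraries, was under the level tested, and without the filter gave a log2 fold change of 0.62 (adjusted p = 0.00419). Mmp8, the collagenase of neutrophils, stayed at 0.88 FPKM or less in every library. Beside them, 2 of 6 neutrophil markers rose, S100a8 and S100a9, where 3 could be tested and Csf3r was not called. Of all genes tested 45.1% rose, and S100a9 had passed the filter only through the NICD2_Pax8 libraries. The summed level was 2.14 to 3.49 FPKM in wild type and 5.65 to 13.5 in NICD2_Pax8. Of those under the level tested, Cxcr2 stood at 0.05 to 0.10 FPKM in wild type and 0.17 to 0.42 in NICD2_Pax8. Elane was at 0 in all NICD2_Pax8 libraries and Ly6g at 0.08 FPKM or less. The part of neutrophils was not tested.

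Mmp28, epilysin, was the 1 tested member of the Mmp family called lower, and it had passed the filter only through the wild-type libraries. It read 1.72, 1.32 and 1.53 FPKM in wild type and 0.28, 0.73 and 0.80 FPKM in NICD2_Pax8, a 2.52-fold fall (log2 fold change -0.67, SE 0.17, adjusted p = 0.014). Exons of an annotated gene on the opposite strand, 1700020L24Rik, cover 12.3% of its exonic bases. The labels do not say that the counting used strand. Mmp11 and Mmp23 were not called, at 1.65 to 2.71 and 2.56 to 3.99 FPKM over the 6 libraries.

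**Figure D4:**
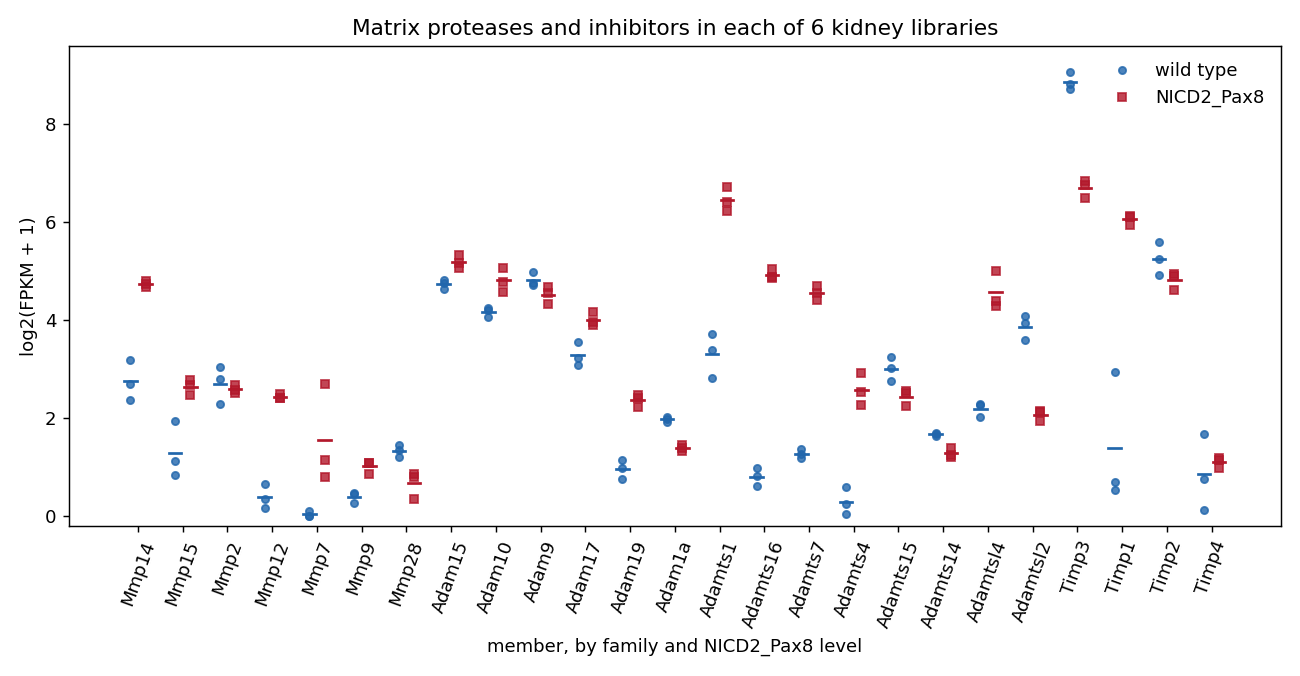
Level of 25 members as log2(FPKM + 1) (vertical axis) in each library, grouped by family along the horizontal axis, with circles for wild type, squares for NICD2_Pax8 and short lines for the group means (n = 3 each). Adamts16, Adamts7, Adamts1 and Timp1 show the widest gaps upward and Timp3 and Adamtsl2 the widest downward, while Mmp2, Timp2 and Timp4 overlap.

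Of the 10 tested ADAMs 5 rose and 1 fell, beside 45.1% and 16.2% of all genes, and after scaling 3 rose and 3 fell, beside 28.7% and 25.7%. Adam10 (gene 11487, chromosome 9, 70678944 to 70780229, plus strand) read 15.7, 17.9 and 17.4 FPKM in wild type and 32.6, 23.0 and 26.4 FPKM in NICD2_Pax8. The groups did not overlap, and NICD2_Pax8 replicate 1 was the highest. Its log2 fold change was 0.64 (SE 0.14, adjusted p = 0.00739), which fell to 0.30 after scaling (adjusted p = 0.141). In the authors' deposited table Adam10 has a log2 fold change of 0.32 and a q of 0.153.

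Adam17 (gene 11491, chromosome 12, 21323509 to 21373632, minus strand), which sheds TNF and the ligands of the EGF receptor, read 10.7, 8.40 and 7.52 FPKM in wild type and 16.99, 13.9 and 14.5 FPKM in NICD2_Pax8. It rose 1.71-fold (log2 fold change 0.72, SE 0.15, adjusted p = 0.00547). After scaling the value was 0.39 (adjusted p = 0.0245). With quantile normalization it was not called (adjusted p = 0.06). The ratio of Adam10 to Adam17 was 1.48 to 2.32 in wild type and 1.65 to 1.92 in NICD2_Pax8, so the ranges overlapped.

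Adam15 and Adam9, broadly expressed membrane ADAMs, were the most abundant of the family in wild type. Adam9 read 25.9, 30.6 and 25.2 FPKM in wild type and 24.6, 19.0 and 22.4 FPKM in NICD2_Pax8, and was called lower only with scaling (log2 fold change -0.30 without it and -0.64 with it). Adam15 read 26.2, 27.1 and 23.9 FPKM in wild type and 32.3, 39.1 and 35.1 FPKM in NICD2_Pax8, and was called higher only without scaling (0.45 and 0.11). The order of the 3 highest thus went from Adam9, Adam15 and Adam10 to Adam15, Adam10 and Adam9, where each neighbouring pair overlapped in NICD2_Pax8 and Adam9 overlapped with Adam15 in wild type. For Adam15, exons of the opposite-strand gene 4731419I09Rik cover 24.7% of the exonic bases.

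Adam19, also called meltrin beta and known for cutting neuregulin, had the largest rise of the family. It read 1.22, 0.98 and 0.68 FPKM in wild type and 4.53, 3.65 and 4.29 FPKM in NICD2_Pax8, a 4.33-fold rise (log2 fold change 1.40, SE 0.15, adjusted p = 3.83e-04). Exons of Gm16033 and Gm16034 on the opposite strand cover 9.2% and 7.52% of its exonic bases. Adam8, a leukocyte ADAM that had passed the filter only through the NICD2_Pax8 libraries, rose 3.05-fold, or 4.64-fold without wild-type replicate 1, from 0.31 to 0.92 FPKM to between 1.42 and 1.82 FPKM. Adam1a, a sperm protein in its best-known role, read 3.06, 2.96 and 2.79 FPKM in wild type and 1.74, 1.60 and 1.52 FPKM in NICD2_Pax8. It fell 1.81-fold (adjusted p = 0.00386). Of its 7508 exonic bases in GENCODE, 63.7% are shared with the overlapping gene Gm42878 and 24.0% with Mapkapk5. As deposited its longest transcript has 3092 bases, and the overlap within that was not measured. Whether its fragments can be told apart from theirs is therefore not known.

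Among the tested proteases the ADAMTS family held the largest rises in log2 fold change. Adamts16 (gene 271127, chromosome 13, 70727798 to 70841844, minus strand), a protease known from the developing kidney and from blood pressure genetics in rats, read 0.76, 0.98 and 0.52 FPKM in wild type and 31.9, 28.6 and 28.1 FPKM in NICD2_Pax8. It went from the eleventh to the second highest of the 19 and rose 39.2-fold (log2 fold change 4.13, SE 0.13, adjusted p = 1.34e-05). Adamts16 had passed the filter only through the NICD2_Pax8 libraries. The wild-type values rest on an estimated 48.0 to 89.8 fragments and the NICD2_Pax8 values on 2945 to 3152. The spread between libraries was small next to the gap.

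Adamts1 (gene 11504, chromosome 16, 85793827 to 85803113, minus strand), which cuts versican and aggrecan and is needed for normal kidney structure, was the most abundant of the family in both groups. It read 12.2, 9.44 and 6.09 FPKM in wild type and 104, 74.5 and 83.7 FPKM in NICD2_Pax8, and rose 9.48-fold (log2 fold change 3.14, SE 0.24, adjusted p = 1.15e-04). Adamts7 (gene 108153, chromosome 9, 90162904 to 90200102, plus strand), which cuts cartilage oligomeric matrix protein, read 1.59, 1.40 and 1.28 FPKM in wild type and 20.4, 24.9 and 22.6 FPKM in NICD2_Pax8. That is a 15.9-fold rise (log2 fold change 3.28, SE 0.12, adjusted p = 1.83e-05). For both genes every NICD2_Pax8 library lay far above every wild-type one.

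Adamts4, an aggrecanase, read 0.50, 0.18 and 0.03 FPKM in wild type and 6.59, 4.79 and 3.79 FPKM in NICD2_Pax8. It rose 21.4-fold, or 48.2-fold without wild-type replicate 1 (log2 fold change 2.28, SE 0.22, adjusted p = 2.56e-04). Adamts4 had passed the filter only through the NICD2_Pax8 libraries. Adamts5, the other main aggrecanase, read 3.26, 2.97 and 2.35 FPKM in wild type and 2.19, 1.88 and 1.95 FPKM in NICD2_Pax8. It was called lower with scaling, and as deposited only without wild-type replicate 3 (log2 fold change -0.45, adjusted p = 0.0351). Adamts20 was under the level tested, at 0.01 to 0.15 FPKM in wild type and 0.95 to 1.42 in NICD2_Pax8, and without the filter gave a log2 fold change of 1.03 (adjusted p = 7.55e-04).

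The procollagen-trimming members went both ways. Adamts2 rose 1.80-fold, a call lost with scaling unless wild-type replicate 1 was left out, Adamts14 fell, and Adamts3 stayed at 0.17 FPKM or less. Adamts14 read 2.22, 2.11 and 2.21 FPKM in wild type and 1.38, 1.62 and 1.31 FPKM in NICD2_Pax8, a 1.52-fold fall (adjusted p = 0.0258). It lost its call, with adjusted p between 0.0675 and 0.0931, when wild-type replicate 2, wild-type replicate 3 or NICD2_Pax8 replicate 3 was left out. The call was also lost with the replicate number as a block (adjusted p = 0.0672). Bmp1, the protease that trims the other end of procollagen, rose 2.22-fold.

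Adamts15, a versican-cutting protease, was second to Adamts1 in wild type. It read 7.15, 8.48 and 5.75 FPKM in wild type and 3.76, 4.67 and 4.83 FPKM in NICD2_Pax8, a 1.61-fold fall (adjusted p = 0.0186). Without wild-type replicate 2 or NICD2_Pax8 replicate 1 the adjusted p was 0.0637 and 0.0539. The ratio of Adamts1 to Adamts15 was 1.06 to 1.70 in wild type and 16.0 to 27.8 in NICD2_Pax8. Adamts1, Adamts16 and Adamts7 made up more of the family: their shares of the summed ADAMTS level went from 21.3%, 1.76% and 3.39% to 49.1%, 16.7% and 12.9% (means of 3 libraries).

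Of 3 tested ADAMTS-like members 1 rose and 1 fell, with and without scaling. Over all genes 45.1% rose and 16.2% fell, and after scaling 28.7% and 25.7%. Adamtsl4 (gene 229595, chromosome 3, 95676201 to 95687927, minus strand), which binds fibrillin-1 and is needed to hold the lens, read 3.79, 3.88 and 3.06 FPKM in wild type and 31.3, 20.1 and 18.5 FPKM in NICD2_Pax8. It rose 6.51-fold (log2 fold change 2.38, SE 0.21, adjusted p = 1.72e-04). Adamtsl2 (gene 77794, chromosome 2, 27079336 to 27108981, plus strand), which binds fibrillin and a latent TGF-beta binding protein, read 15.9, 14.3 and 11.0 FPKM in wild type and 2.83, 3.34 and 3.42 FPKM in NICD2_Pax8. It fell 4.30-fold (log2 fold change -1.80, SE 0.15, adjusted p = 1.66e-04). The 2 genes exchanged first and second place in the family, and Adamtsl5 was level at 1.57 ± 0.363 and 1.59 ± 0.225 FPKM (SD, n = 3 each).

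The other 32 members were under the level tested. In 24 of them no library reached 1 FPKM, with 0.89 FPKM as the highest value. The remaining 8 were Mmp7, Mmp9, Mmp13, Mmp19, Adam33, Adamts8, Adamts20 and Adamtsl1. Mmp19 read 5.24 FPKM in wild-type replicate 1 and 0.13 to 1.05 in the others. Mmp13, whose promoter stretch is printed above, read 0.40, 0.96 and 1.36 FPKM in wild type and 0.97, 0.60 and 0.77 FPKM in NICD2_Pax8, with full overlap. Without the filter 6 of the 32 were called higher, Mmp7, Mmp9, Mmp25, Adamts8, Adamts13 and Adamts20, and Adam32 was called lower, beside 9.88% and 5.46% of all 6003 genes under that level.

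In the authors' deposited table all 71 members have a q, and 19 are higher and 15 lower at a q under 0.05. Over all its genes 21.3% are higher and 21.5% lower. For the members with the largest changes its log2 fold changes have the same sign as here: 4.90 for Adamts16, 3.74 for Timp1, 3.63 for Adamts7, 2.89 for Adamts1, -2.52 for Timp3 and -2.43 for Adamtsl2.

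Other genes of extracellular proteolysis were counted from a list of 56, of which 44 were tested. Of these 20 rose and 10 fell, and after scaling 18 rose and 13 fell. Over all genes, against which each count below is to be read, 45.1% rose and 16.2% fell, and after scaling 28.7% and 25.7%. In the plasminogen system, whose product plasmin cuts fibrin and activates MMPs, 4 of 6 rose and 1 fell. Plat, an activator, rose 2.56-fold and Plaur, the receptor of the other activator, 5.02-fold.

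Among membrane partners of ADAM10 and ADAM17, 5 of 8 rose and 1 fell, and after scaling 3 rose and 2 fell. The 3 that rose in both fits were the partners of ADAM17. Rhbdf2, the iRhom that carries ADAM17 to the cell surface, read 3.98, 4.53 and 3 FPKM in wild type and 25.6, 23.1 and 18.9 FPKM in NICD2_Pax8, a 5.87-fold rise (adjusted p = 1.02e-04). Rhbdf1 and Frmd8, of the same complex, rose 1.95-fold and 1.98-fold. The rise of Rhbdf2 was larger than the 1.71-fold of Adam17, and the difference between them was not tested.

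Other regulators of MMPs went both ways, with 3 of 8 rising and 3 falling, or 3 and 4 after scaling. Thbs1, a thrombospondin that binds MMPs, rose 3.04-fold and Sdc1, a shed cell-surface proteoglycan, 9.92-fold. Pcsk6, a proprotein convertase, fell 7.46-fold. Among other matrix proteases 1 of 8 rose, Bmp1, and 3 fell: Mep1b, a meprin subunit of the proximal tubule brush border, read 18.1, 100.2 and 66.6 FPKM in wild type and 0.06, 3.95 and 1.09 FPKM in NICD2_Pax8, and Dpp4 fell 1.72-fold, beside the fall of the proximal tubule markers given above. The part of that segment in these falls was not tested.

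Of 9 cathepsins and cystatins 3 rose and 1 fell, or 3 and 2 after scaling. The inhibitors Cstb and Cst3 rose 2.13-fold and 2.48-fold and the protease Ctsl fell 1.73-fold. Of 10 listed substrates and partners of ADAMTS and ADAMTSL proteins 5 were tested, and 4 rose and 1 fell, the same with scaling. The rest, versican among them, were under the level tested. The fibrillins Fbn1 and Fbn2, to which ADAMTSL proteins bind, rose: Fbn1 3.18-fold, and Fbn2 from 0.10, 0.06 and 0.02 FPKM to 6.58, 3.93 and 3.82 FPKM. Fbn2 had passed the filter only through the NICD2_Pax8 libraries and so had to differ. Lox, which crosslinks collagen and elastin, rose 5.65-fold.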

How the data were processed

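The authors deposited 1 table of 23873 genes with FPKM per library, named so per the file headers, of which 19503 had values. Its log2 fold changes, p-values and q-values between the groups were made by the authors, with DESeq2 per the file headers. Bowtie 0.12.2 and mm8 are named in the submitters' processing notes. Since 67 of 71 members carry the start and end that RefSeq gives for GRCm38.p6, file coordinates were taken to be GRCm38. The sources used here do not name a counting tool.

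Values were tested with limma 3.58.1 (R 4.3.3, mean-variance trend, two-sided, genotype as the only term) on log2(FPKM + 1) for 13500 genes. This pseudocount understates the change of low genes. Folds are ratios of mean FPKM and errors are SD or limma's standard error. The test was also run on simulated data with means and spreads taken from these libraries, and its outcome is not given here. For depth, only single-transcript genes 500 to 1500 bases long were used, where 72.3% to 78.6% of values up to 8 fragments lay within 0.15 of a whole number. Exon overlaps are from GENCODE M21. Protein sequences were not used here.

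Members and lists were chosen with earlier results of these data known. Named members, by rule, are all Timp genes, the 10 largest rises and 8 largest falls among called members without overlap (6 fell), the 2 most abundant of each family in each group, and Adam10, Adam17, Mmp2, Mmp7, Mmp9 and Mmp14. Others were named after their values were seen. Alternatives were other pseudocounts, no filter, 3 scalings, the replicate block, each library left out and a stricter threshold. The values of 1 related gene are not reported here.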

Additional observations from a re-analysis of the deposited data

How the results depend on the processing

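Of 23 named and tested members, 13 kept their direction and their side of the threshold under all 15 alternatives, among them Timp1, Timp3, Adamts1, Adamts4, Adamts7, Adamts16, Adamtsl2, Adamtsl4, Mmp12 and Mmp14. The count of members lower, 6 as reported, was 11 with median-of-ratios scaling, 11 with upper quartile scaling, 13 with quantile normalization, 13 when wild-type replicate 1 was also left out of the median-of-ratios fit, and 3 at an adjusted p under 0.01, which is stricter by construction. At that threshold 4 related genes were lower, against 10. Over all genes the lower calls moved the same way, from 2190 to 3473, 3669 and 3558 under the 3 scalings. The cause of the shift with scaling was not tested. The sign turned for Mmp2 without wild-type replicate 1 (log2 fold change 0.050) and for Timp4 with quantile normalization (-0.066) and without wild-type replicate 3 (-0.10), and neither was called in those fits. Over the fits with 1 library left out, Mmp2 ranged from -0.33 to 0.050 and Timp4 from -0.10 to 0.67. Leaving out 1 library at a time gave 16 to 19 members higher and 4 to 7 lower, and 18 to 21 and 7 to 10 related genes, with the genes tested held fixed. Over all 13500 genes the same fits gave 5156 to 6661 higher and 1826 to 2276 lower.

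With the replicate number as a block, 17 members were higher and 5 lower, and 21 and 10 related genes, beside 5818 and 2164 of all 13500 genes. The deviations of same-numbered libraries correlated at 0.0951, -0.0498 and 0.0056 across genes, and not every library correlated best with its own number. These values gave no clear sign that the numbers pair the samples. With 3 libraries in each group they cannot exclude pairing. Without counts in the file no count model was fitted, and short members under 1 FPKM, such as Mmp3 in wild type, rest on few fragments.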
